A study of Mus musculus with 6 samples.

Results

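The genes described here are Trp53, which encodes the transcription factor p53, and 9 genes of its network, found as the rows of the deposited expression table that carry the symbols Trp53, Mdm2, Mdm4, Ccng1, Zmat3, Sesn1, Trp53inp1, Phlda3, Aen and Rrm2b. All 10 were present, out of 27198 genes listed, and all 10 passed the filter on low counts that left 16520 genes to test. The RNA came from hematopoietic stem cells (HSCs) sorted from the bone marrow of male wild-type C57BL/6 mice aged 8 to 10 weeks, none of which had been irradiated. Control (Ctrl) mice received vehicle, and long-term ferulic acid (l-FA) mice were injected intraperitoneally with ferulic acid, a plant phenolic acid with antioxidant activity, over 30 days at a daily 50 mg/kg. Each group had 3 libraries, and the number of mice behind each is not given in the sources used here, so adjusted p-values rest on a spread between libraries that may be technical.

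p53 is held at a low protein level in unstressed cells by the products of Mdm2 and Mdm4. When DNA is damaged or growth signals are abnormal, p53 protein accumulates and switches on genes that stop the cell cycle, repair DNA, limit oxidants or kill the cell, and Mdm2 is itself such a target, which closes a negative feedback loop. In HSCs p53 is known for maintaining quiescence and for setting the response to irradiation. Because p53 is controlled largely at the protein level, the RNA of its targets is commonly read beside the RNA of Trp53 itself.

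The libraries held between 19287735 and 20380610 counts each. Pairs of libraries of the same group gave a median chi-square per gene of 0.943 to 1.15 where counting error alone gives 0.455, so none was a copy of another, and pairs from different groups gave 9.25 to 10.1. About the same number of genes passed the test in each direction, and the background against which every count below is read is large: 50.5% of the genes tested differed at an adjusted p under 0.05, with 25.5% higher and 25% lower in l-FA. Scaling by total counts in place of TMM factors turned this split of 4205 higher and 4131 lower into 5146 higher and 3205 lower. At the 2-fold limit of the study's methods 11.8% passed, 6.68% higher and 5.1% lower. The 3 l-FA libraries lay wholly above or wholly below the 3 Ctrl libraries for 60.3% of genes.

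The labelled cell type was checked against its markers. Kit, the receptor used to select the cells, had a TMM-normalized level of 1067 ± 18.8 CPM (counts scaled to a common library size) in Ctrl and of 1157 ± 9.92 CPM in l-FA (mean ± SD, n = 3 libraries). Ly6a, which encodes Sca-1, had 45 ± 10.9 and 76.8 ± 1.74 CPM. The sort was for CD34-negative and Flt3-negative cells, but Cd34 RNA was at 1343 ± 18.4 CPM in Ctrl and 1579 ± 38.2 in l-FA, and Flt3 RNA at 759 ± 3.43 and 1183 ± 19.8 CPM. Of 12 HSC markers, 8 rose, 1 fell and 3 did not pass, and their summed level was 1838 to 1906.5 CPM in Ctrl and 2099 to 2118 in l-FA. Of 11 granulocyte and monocyte markers, 10 fell and 1 rose, and the sum went from 23222 to 24073 CPM in Ctrl down to 6067 to 6382 in l-FA. Mpo, the myeloperoxidase of granules, alone had 18544 ± 505 CPM in Ctrl and 4939 ± 167 in l-FA. Expressed on the log2 scale, the change was -2.82 for Elane, neutrophil elastase, 1.90 for the HSC marker Slamf1, 0.30 for the HSC marker Procr and -0.20 for Mki67, a marker of cycling cells. Slamf1 had only 40, 51 and 32 counts in Ctrl. The HSC marker that fell was Hlf, at -0.31 (edgeR adjusted p = 0.00195), and those that did not pass were Meis1, Hoxb5 and Ctnnal1. Among 10 proliferation markers 5 fell, 1 rose and 4 did not pass, the sums being 2314 to 2440 and 2201 to 2224 CPM. Erythroid markers gave 1 rise and 1 fall among 6 tested (sums of 66.7 to 69.2 and 69.4 to 70.9 CPM), and megakaryocyte markers gave 2 rises among 5 (203.9 to 214.9 and 283.9 to 288.4 CPM). Only 3 of 6 B cell markers could be tested, with 1 rise (55.6 to 55.9 and 63.2 to 66 CPM), and 2 of 5 T and NK cell markers, with 1 rise and 1 fall (544 to 566 and 309 to 318 CPM). Among the defining markers, the B cell factor Pax5 was at 0 in every library but 1, and Ms4a1 and Cd8a were at 0 in every l-FA library with 6 to 13 counts in Ctrl. Of the T cell receptor complex, Cd3d was at 0 in 2 l-FA libraries and Cd3e at 0 in 2 Ctrl libraries. Cd4 went from 48, 43 and 31 counts in Ctrl to 139, 137 and 162 in l-FA, and Nkg7, which made up most of the T and NK cell sum, from 556 ± 12.2 to 307 ± 4.80 CPM. In bulk RNA, fewer cells of a type and less of its RNA per cell cannot be told apart, and the part of these marker shifts in the values below was not tested.

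The promoters of the members are shown first, because the genes are grouped by one regulator. p53 binds DNA at pairs of a consensus decamer that is its own reverse complement, so that a search on one strand covers both. In RefSeq promoter windows of the GRCm38.p6 assembly, each reaching from 250 bases before to 50 bases after a transcription start, 7 of the 10 members had an entry, and 5 of these, Trp53, Mdm2, Sesn1, Ccng1 and Aen, held an exact decamer. Over all genes with a window, 9.6% held one, and among the 37 further p53 targets with a window it was 10, or 27%. No member window held 2 exact decamers separated by at most 13 bases, a pairing found in 24 of 32851 windows in all. Decamers that depart from the consensus at any base were not searched for. A pair with an inexact decamer, also beside one marked below, would be missed. Mdm4 and Phlda3 had windows without the decamer, and Zmat3, Trp53inp1 and Rrm2b had no entry. The sites are printed 5′ to 3′ on the strand of the gene with the decamer in capitals, and a match is a description of the sequence, not a bound site.
Trp53, chr11:69580264-69580313, plus strand, decamer starting 75 bases before the start: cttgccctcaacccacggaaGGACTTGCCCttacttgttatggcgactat
Mdm2, chr10:117710915-117710964, minus strand, 186 bases before the start: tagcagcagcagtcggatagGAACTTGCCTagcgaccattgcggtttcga
Ccng1, chr11:40755442-40755491, minus strand, 185 bases before the start: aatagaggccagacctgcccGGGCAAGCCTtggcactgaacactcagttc
Sesn1, chr10:41887246-41887295, plus strand, 173 bases before the second listed start: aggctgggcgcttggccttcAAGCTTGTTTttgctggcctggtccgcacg
Aen, chr7:78895917-78895946, plus strand, decamer starting 11 bases after the first listed start and 121 bases before the second: atagacaggtagccgaagccGGGCTTGTCC
These 5 genes did not move alike: Mdm2 and Sesn1 rose in l-FA, Ccng1 fell, Aen did not pass, and the call on Trp53 was lost in 8 of the 13 alternatives.

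Of the 10 members, 7 passed the test between l-FA and Ctrl (edgeR's quasi-likelihood test, adjusted p under 0.05 over all genes), against a background of 50.5%. The 5 that rose were the inhibitors Mdm2 and Mdm4 and the targets Sesn1, Trp53inp1 and Zmat3, and the 2 that fell were Trp53 and the target Ccng1. Phlda3, Aen and Rrm2b did not pass. The median log2 fold change was 0.10 over the members and 0.00 over all genes tested. In that test no member passed the 2-fold limit, which 11.8% of all genes did, though Zmat3 passed it in at least 1 alternative. Groups did not overlap for 8 members, 5 with l-FA above and 3 with l-FA below, where the groups were apart for 60.3% of all genes, 30.4% with l-FA above and 29.9% with l-FA below. With 13 alternative settings, between 6 and 7 members passed, and with total-count or upper-quartile scaling it was 5 that rose and 1 that fell.

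**Figure D1:**
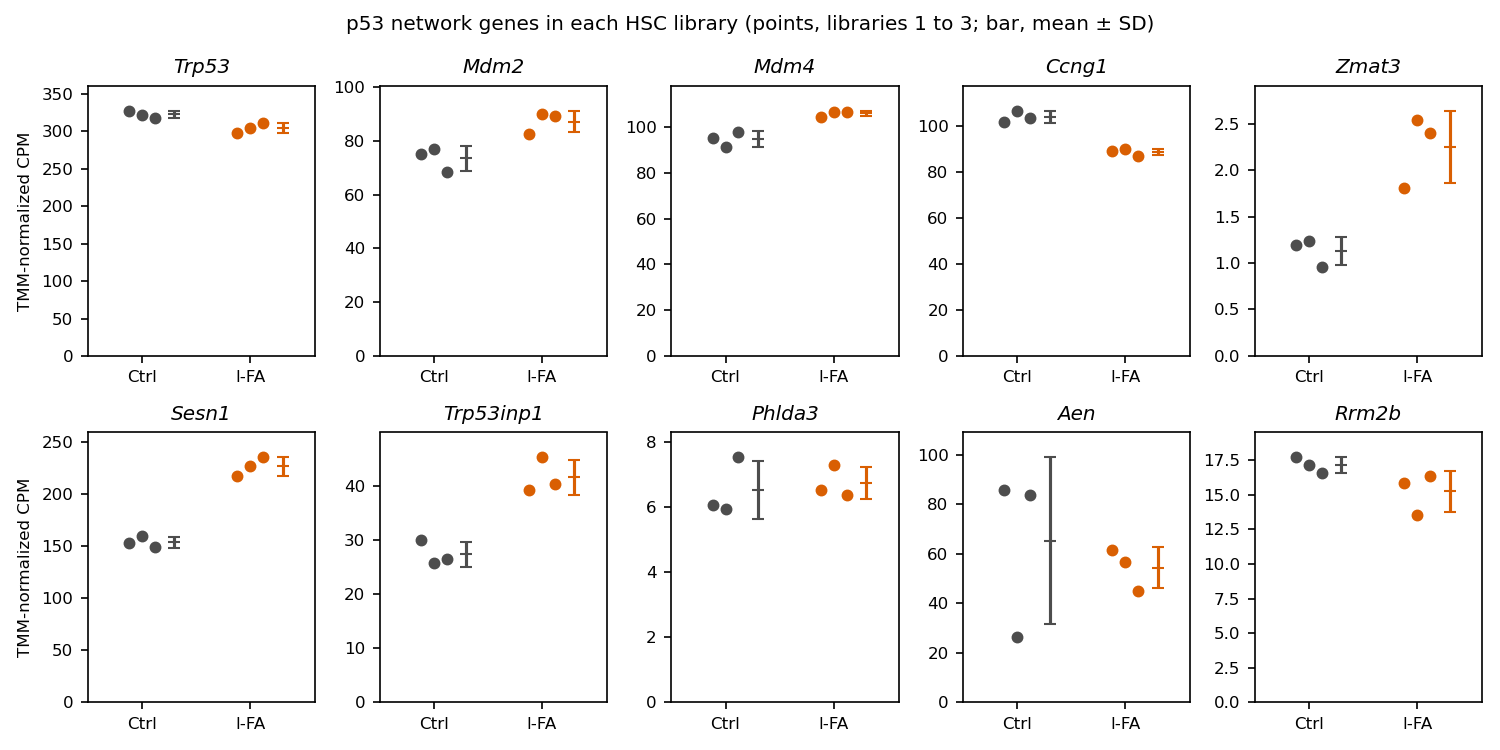
TMM-normalized CPM (y axis, starting at 0, a separate scale for each gene) of the 10 genes in Ctrl and l-FA libraries. Points are libraries 1 to 3 from left to right and the bar beside them is the mean ± SD; Sesn1 and Trp53inp1 separate the groups widely, and 1 Ctrl library of Aen, at 26.3 CPM, lies far under the others.

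Trp53 (ENSMUSG00000059552, listed on chromosome 11 from 69471185 to 69482699) had 6293, 6011 and 6344 raw counts in Ctrl libraries and 6252, 6102 and 6226 in the l-FA libraries. Those raw counts overlapped between the groups. After TMM normalization the levels were 327.9, 322 and 318 CPM in Ctrl and 297.7, 304 and 312 CPM in l-FA, so that every l-FA value was lower than every Ctrl value. This gave a log2 fold change of -0.08 (± 0.026 SE, 95% interval -0.15 to -0.02, edgeR adjusted p = 0.0331). This fall was sensitive to the scaling, among other settings. With total counts in place of TMM factors the log2 fold change was -0.01 (± 0.024 SE, edgeR adjusted p = 0.865, the top of a range of 0.0208 to 0.865 over the alternatives). The authors' FPKM values, which also scale by total counts, were 44.1 ± 0.567 in Ctrl and 44 ± 0.877 in l-FA (mean ± SD, n = 3 libraries). Trp53 passed in 5 of the 13 alternatives. Besides total-count and upper-quartile scaling, the call was lost without the low-count filter, with the replicate block, and without Ctrl library 1, Ctrl library 2, l-FA library 1 or l-FA library 2. Trp53-ps, a processed pseudogene with similar sequence, had 68 to 90 counts per library. Of the coordinates, those listed with gene identifiers are on GRCm39, the build named in the submitters' processing notes, and those of promoters are on GRCm38.

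Mdm2 and Mdm4 encode related proteins that bind p53, MDM2 as a ubiquitin ligase that marks it for destruction and MDM4 chiefly as a blocker of its transcriptional activity. Mdm2 (ENSMUSG00000020184; chromosome 10, 117524780 to 117546663) had 75, 77.1 and 68.3 CPM in Ctrl and 82.5, 89.9 and 89.1 CPM in l-FA. All l-FA libraries were higher than all Ctrl libraries. On the log2 scale the difference was 0.25 (± 0.059 SE, 95% interval 0.10 to 0.39, edgeR adjusted p = 0.0131). Mdm4 (ENSMUSG00000054387; chromosome 1, 132887222 to 132958299) had 95.3, 91.2 and 98.1 CPM in Ctrl and 104.6, 106.8 and 106.7 CPM in l-FA. Again no l-FA library fell within the Ctrl range. Expressed on the log2 scale, the change was 0.16 (± 0.037 SE, 95% interval 0.07 to 0.25, edgeR adjusted p = 0.0107). Both genes passed in all 13 alternatives, with log2 fold changes of 0.19 to 0.33 for Mdm2 and 0.13 to 0.24 for Mdm4. A processed pseudogene that overlaps Mdm4, Gm29257, had 47 to 73 counts in a library, and Mdm4-ps had 29 to 53.

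The ratio of 2 genes within a library does not depend on how libraries are scaled. Per length, on the authors' FPKM scale, the ratio of Mdm2 to Trp53 was 0.166, 0.174 and 0.156 in the Ctrl libraries and 0.201, 0.214 and 0.207 in the l-FA libraries. For Mdm4 to Trp53 the ratio was 0.0847, 0.0826 and 0.0898 in Ctrl and 0.102, 0.102 and 0.0998 in l-FA. Both inhibitors were thus higher relative to Trp53 RNA in every l-FA library than in any Ctrl library. Mdm2 and Mdm4 kept about the same proportion to each other, with a ratio of 1.93 ± 0.187 in Ctrl and 2.04 ± 0.0724 in l-FA (mean ± SD, n = 3 libraries).

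Sesn1 and Trp53inp1 are targets linked to redox balance and to autophagy and cell death. Sestrin 1, the product of Sesn1, restrains mTORC1 signaling and limits oxidative stress. Sesn1 (ENSMUSG00000038332; chromosome 10, 41685931 to 41784420) had 152.8, 159.7 and 149 CPM in Ctrl and 217.5, 227 and 236 CPM in l-FA. The lowest l-FA library was well above the highest Ctrl library. The change on the log2 scale was 0.56 (± 0.041 SE, 95% interval 0.46 to 0.66, edgeR adjusted p = 0.000107), or 1.47-fold. It lay between 0.53 and 0.64 over the alternatives. Trp53inp1 (ENSMUSG00000028211; chromosome 4, 11156431 to 11174379) had 30, 25.7 and 26.5 CPM in Ctrl and 39.3, 45.4 and 40.3 CPM in l-FA. Its groups did not overlap either. The log2 fold change was 0.60 (± 0.084 SE, 95% interval 0.40 to 0.81, edgeR adjusted p = 0.00132), or 1.52-fold, and lay between 0.55 and 0.68 over the alternatives.

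Zmat3, which encodes an RNA-binding zinc finger protein that acts on splicing and RNA stability, was the rarest member. Zmat3 (ENSMUSG00000027663; chromosome 3, 32388941 to 32420163) had 23, 23 and 19 raw counts in Ctrl libraries and 38, 51 and 48 in the l-FA libraries. The groups did not overlap. On the scale of TMM-normalized CPM this was 1.13 ± 0.152 in Ctrl and 2.25 ± 0.389 in l-FA (mean ± SD of 3 libraries), a difference of 0.99 on the log2 scale (± 0.20 SE, 95% interval 0.51 to 1.48, edgeR adjusted p = 0.00642). The fold of 1.99 was just under the 2-fold limit, and the interval reaches to both sides of it. Over the 13 alternatives the log2 fold change lay between 0.88 and 1.14, also on both sides (adjusted p of 0.00358 to 0.0234 from edgeR or DESeq2). Counting error at these counts is 21.5% of the level in Ctrl and 14.8% in l-FA, so that the size of the rise is known less well than for the other members that rose.

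Ccng1, which encodes cyclin G1 and is among the most responsive p53 targets in mouse tissues, went the other way. Ccng1 (ENSMUSG00000020326; chromosome 11, 40639379 to 40646138) had 101.6, 106.7 and 103.6 CPM in Ctrl and 88.9, 89.9 and 87 CPM in l-FA. All l-FA libraries were lower than all Ctrl libraries. Expressed on the log2 scale, the change was -0.23 (± 0.033 SE, 95% interval -0.31 to -0.15, edgeR adjusted p = 0.00156), and it was -0.15 with total-count scaling (edgeR adjusted p = 0.00823). Its libraries differed within a group by about what counting error would give, with a coefficient of variation of 2.45% in Ctrl and 1.64% in l-FA beside a counting error of 2.24% and 2.36%. Ccng2, its paralog, which is usually grouped with FoxO targets, rose from 98.4 ± 2.11 to 151 ± 1.54 CPM (log2 fold change 0.62 ± 0.029 SE, edgeR adjusted p = 2.48e-05). The ratio of Ccng1 to Ccng2 per length fell from 2.53 ± 0.0341 in Ctrl to 1.41 ± 0.0358 in l-FA (mean ± SD, n = 3 libraries).

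**Figure D2:**
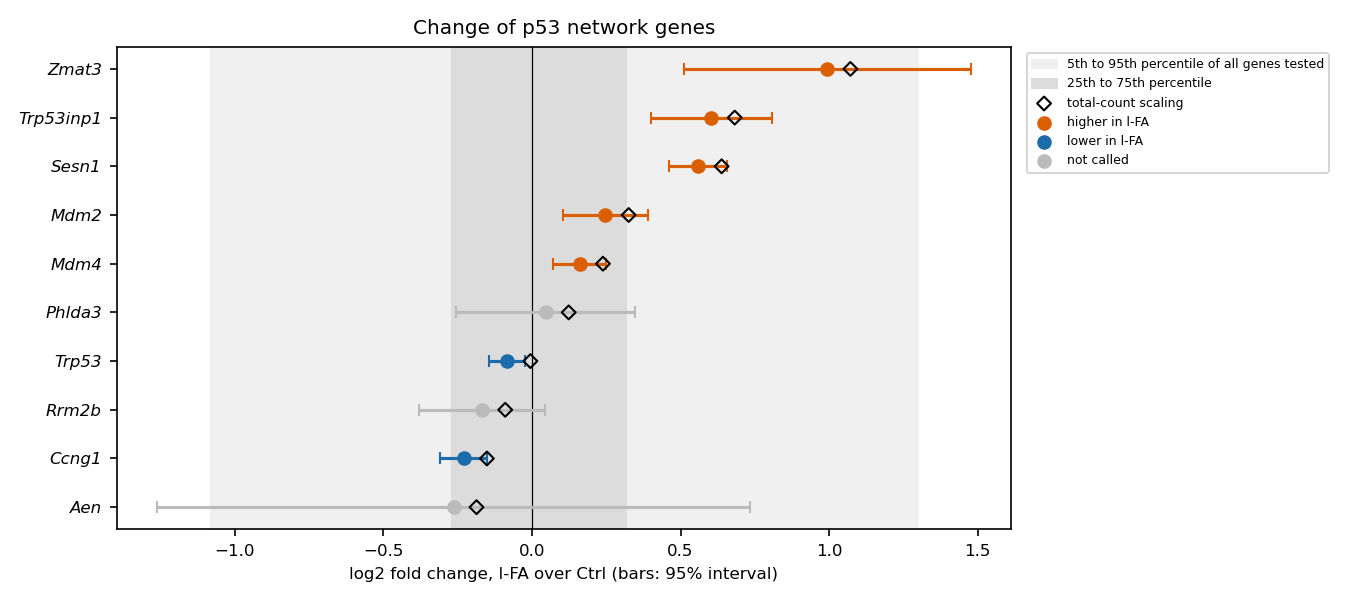
Log2 fold change of l-FA over Ctrl (x axis) for the 10 genes, with 95% intervals, on bands that mark the 5th to 95th and the 25th to 75th percentile of all genes tested. Open diamonds give the value with total-count scaling; each lies to the right of its TMM value, and that of Trp53 lies at -0.01.

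Phlda3, Aen and Rrm2b did not pass. Phlda3 (ENSMUSG00000041801; chromosome 1, 135693857 to 135696874), whose product binds membrane phosphoinositides and restrains AKT, had 116, 111 and 150 counts in Ctrl and 137, 146 and 127 in l-FA. The libraries of the groups were interleaved. This gave a log2 fold change of 0.05 with a 95% interval of -0.26 to 0.35 (edgeR adjusted p = 0.789).

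Rrm2b (ENSMUSG00000022292; chromosome 15, 37924196 to 37961562) encodes the p53-inducible subunit of ribonucleotide reductase, which supplies nucleotides for DNA repair outside S phase. Its level was 17.7, 17.2 and 16.6 CPM in Ctrl and 15.9, 13.6 and 16.3 CPM in l-FA. Each l-FA library was below each Ctrl library, but the difference did not pass the test. On the log2 scale the difference was -0.17 (± 0.089 SE, 95% interval -0.38 to 0.04, edgeR adjusted p = 0.16). Gm3362, a processed pseudogene listed inside Rrm2b with 316 to 401 counts, had about as many counts as Rrm2b itself, and the strand setting of the counting is not given in the sources used here. Rrm2 and Rrm1, which encode other subunits of ribonucleotide reductase, both fell. Rrm2 went from 352 ± 2.63 to 287 ± 5.35 CPM (log2 fold change -0.29, edgeR adjusted p = 0.000128) and Rrm1 from 721 ± 9.82 to 629 ± 12.9 CPM (-0.20, adjusted p = 0.000544).

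Aen (ENSMUSG00000030609; chromosome 7, 78545602 to 78560957) encodes a nuclease that takes part in apoptotic DNA breakdown. Raw counts were 1644, 491 and 1671 in Ctrl libraries and 1292, 1133 and 902 in the l-FA libraries. Ctrl library 2 lay 3.26-fold below the highest Ctrl library, and the l-FA libraries fell between it and the other two. The coefficient of variation in Ctrl was 51.7%, where counting error gives 2.81%. The change on the log2 scale was -0.26 (± 0.42 SE, 95% interval -1.26 to 0.73, edgeR adjusted p = 0.635), and without Ctrl library 2 it was -0.64 (± 0.13 SE, adjusted p = 0.0113, in a range of 0.0113 to 0.977 over the alternatives), a fall. Aen was one of 46 genes, of 11428 with a mean count of at least 100, in which this library lay at least 2-fold below both others of its group, and the other libraries had between 48 and 56 such genes. Isg20, which encodes an exonuclease of the same family, rose from 18.6 ± 0.893 to 32.9 ± 1.07 CPM (log2 fold change 0.82, edgeR adjusted p = 0.000111).

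On the FPKM scale, which allows levels to be compared between genes, Trp53 was the highest member in Ctrl at 44.1 ± 0.567, followed by Sesn1 at 36.9 ± 1.11 and Ccng1 at 23.4 ± 0.523 (mean ± SD, n = 3 libraries). Mdm2 followed at 7.29 ± 0.422 and Aen at 5.99 ± 3.11, which did not differ beyond their spread. Mdm4 at 3.78 ± 0.157, Trp53inp1 at 3.70 ± 0.309 and Phlda3 at 3.16 ± 0.447 likewise had overlapping ranges. Rrm2b was at 1.65 ± 0.0506 and Zmat3 at 0.0910 ± 0.0118. In l-FA the order of the first pair was exchanged, with Sesn1 at 57.4 ± 2.11 FPKM above Trp53 at 44 ± 0.877, and the ratio of Sesn1 to Trp53 went from 0.817, 0.869 and 0.820 in the Ctrl libraries to 1.28, 1.31 and 1.32 in the l-FA libraries. Trp53inp1, at 5.94 ± 0.449, moved above Mdm4, at 4.46 ± 0.0358.

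**Figure D3:**
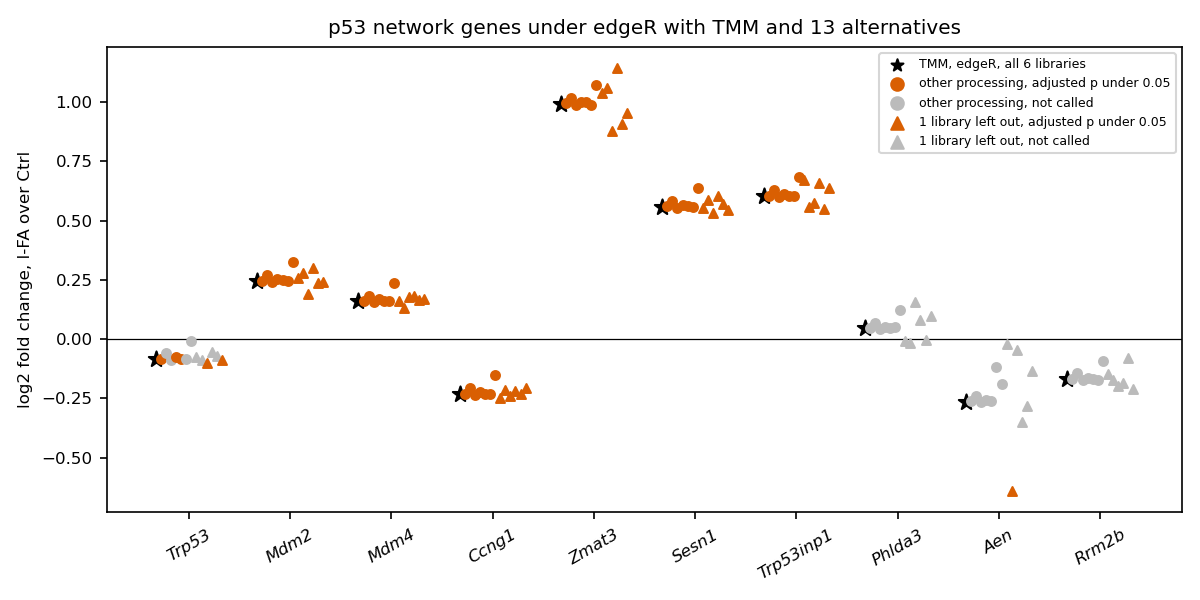
Log2 fold change of l-FA over Ctrl (y axis) of each gene under edgeR with TMM (star), under 7 other ways of processing (circles) and with each of the 6 libraries left out (triangles), in orange where the adjusted p was under 0.05 and grey where it was not. Mdm2, Mdm4, Ccng1, Zmat3, Sesn1 and Trp53inp1 passed in every setting shown, Trp53 in some, and Aen passed only without Ctrl library 2, at -0.64.

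The wider set of p53 targets was read from a list of 45 further genes, of which 42 could be tested. In l-FA, 12 of these rose, 12 fell and 18 did not pass (15 rises and 10 falls with total-count scaling), beside a background of 25.5% higher and 25% lower, and their median log2 fold change was 0.05. Past the 2-fold limit, 1 was higher, Ak1, and 2 were lower, Tigar and Plk3. The 4 functional groups of this list differed in their counts, but the difference between them was not tested.

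Among 10 targets that act on the cell cycle, 4 rose, 3 fell and 3 did not pass. Cdkn1a, which encodes the cyclin-dependent kinase inhibitor p21 and is the best known target of p53 in cell cycle arrest, had 1265, 815 and 981 counts in Ctrl and 1229, 1272 and 1246 in l-FA. Ctrl library 1 lay at the level of the l-FA libraries and the other two Ctrl libraries below it. The log2 fold change was 0.21 (± 0.15 SE, 95% interval -0.13 to 0.56, edgeR adjusted p = 0.265), and without Ctrl library 1 it was 0.40 (adjusted p = 0.0064, in a range of 0.0064 to 0.599). Btg2, an antiproliferative cofactor of mRNA deadenylation, rose from 78 ± 0.933 to 152 ± 2.09 CPM (log2 fold change 0.96 ± 0.029 SE, edgeR adjusted p = 4.72e-06). Plk2, a kinase of the polo family, rose from 15.6 ± 3.15 to 29 ± 1.40 CPM (0.89 ± 0.14 SE, edgeR adjusted p = 0.00225). Its relative Plk3, named here after its values were seen, fell from 3.61 ± 0.451 to 1.61 ± 0.166 CPM (-1.16, edgeR adjusted p = 0.00117).

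Targets listed under cell death, which include both promoters and inhibitors of it, showed 5 falls and 1 rise among 13 tested, with 7 that did not pass and a median log2 fold change of -0.21. The rise was in Bbc3, which encodes the BH3-only protein PUMA, from 10.6 ± 0.737 to 14.3 ± 0.381 CPM (log2 fold change 0.42 ± 0.079 SE, edgeR adjusted p = 0.00446). Bax, the pore-forming effector downstream of such proteins, fell from 74.5 ± 9.80 to 56.1 ± 1.96 CPM (-0.41 ± 0.093 SE, edgeR adjusted p = 0.0107). Bid, a BH3-only protein cleaved by caspases, fell from 183 ± 1.55 to 132 ± 1.47 CPM (-0.48, edgeR adjusted p = 3.26e-05), and it overlaps Bcl2l13 in the table. Dram1, which links p53 to autophagy, fell from 12.9 ± 0.121 to 7.42 ± 0.623 CPM (-0.80, edgeR adjusted p = 0.000487). Perp, a membrane protein of desmosomes and apoptosis, fell from 6.65 ± 0.295 to 4.57 ± 0.767 CPM (-0.54, edgeR adjusted p = 0.0169), but did not pass without Ctrl library 1 or without l-FA library 2 (adjusted p up to 0.0574).

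Of 7 targets in DNA repair and related functions, 2 rose, 2 fell and 3 did not pass. Ddb2, a sensor of ultraviolet damage in nucleotide excision repair, rose from 18.3 ± 0.882 to 32.2 ± 0.467 CPM (log2 fold change 0.81 ± 0.058 SE, edgeR adjusted p = 9.73e-05). The gene overlaps Acp2, which had a mean of 981 counts. Rps27l, a p53-induced relative of a ribosomal protein, fell from 93.3 ± 5.67 to 65.5 ± 2.43 CPM (-0.51, edgeR adjusted p = 0.000456).

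The group listed as metabolic, redox and secreted targets gave 5 rises and 2 falls among 12 tested. This group also holds genes with other functions, such as Ndn. Tigar, a fructose bisphosphatase that diverts glucose toward the pentose phosphate pathway, had 19.4, 20.3 and 19.3 CPM in Ctrl and 4.95, 4.89 and 6.01 CPM in l-FA. This was the largest fall of the 42 genes tested (log2 fold change -1.89 ± 0.10 SE, edgeR adjusted p = 3.43e-05) and the groups lay far apart. Ak1, an adenylate kinase, rose from 8.77 ± 1.14 to 18.1 ± 0.767 CPM (1.05, edgeR adjusted p = 0.000367). Ndn, which encodes necdin, a growth suppressor that holds HSCs in quiescence, rose from 7.90 ± 0.291 to 11.5 ± 1.23 CPM (0.54, edgeR adjusted p = 0.00447). Sesn2 rose by less than Sesn1, from 20.4 ± 0.406 to 24.2 ± 0.899 CPM (0.25 ± 0.057 SE, edgeR adjusted p = 0.0107). Sesn3 had 142, 64 and 116 counts in Ctrl and 68, 363 and 346 in l-FA, so that 1 l-FA library lay among the Ctrl libraries, and it did not pass (log2 fold change 1.21 ± 0.62 SE, edgeR adjusted p = 0.152). Without l-FA library 1 the change of Sesn3 was 1.68 (adjusted p = 0.00687, in a range of 0.00687 to 0.34).

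**Figure D4:**
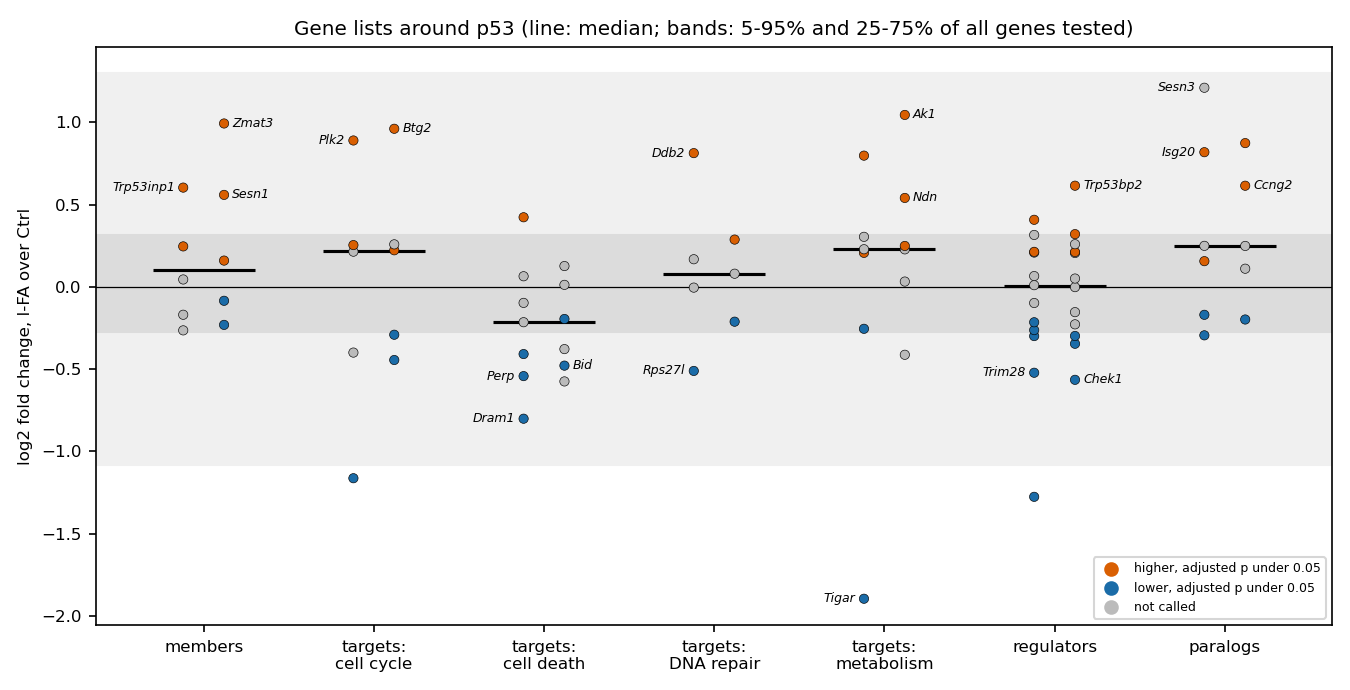
Log2 fold change of l-FA over Ctrl (y axis) for each tested gene of the 10 members, the 4 groups of further p53 targets, the regulators and the paralogs (x axis), coloured by the call at an adjusted p under 0.05. Lines are medians and bands are the 5th to 95th and 25th to 75th percentile of all genes tested; most points lie inside the wider band, and Tigar, at -1.89, lies lowest.

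Upstream of p53, 24 of 25 listed regulators and cofactors were tested, and 5 rose, 8 fell and 11 did not pass, or 6 and 6 rises and falls with total-count scaling. No listed gene carried the symbol Cdkn2a, whose ARF product inhibits MDM2, nor those of the p53 family genes Trp63 and Trp73. These genes were therefore not analysed here. Among the damage-signaling kinases, Chek1 fell from 56.4 ± 3.73 to 38.2 ± 4.08 CPM (log2 fold change -0.56 ± 0.089 SE, edgeR adjusted p = 0.00216) and Atr from 63.9 ± 2.19 to 51.9 ± 2.09 CPM (-0.30 ± 0.048 SE, edgeR adjusted p = 0.00235). Trim28, a corepressor that works with MDM2 against p53, fell from 224 ± 9.20 to 156 ± 4.49 CPM (-0.52, edgeR adjusted p = 0.000116). The deubiquitinase gene Usp10, which stabilizes p53, fell from 133 ± 4.88 to 104.6 ± 17.2 CPM (-0.35, edgeR adjusted p = 0.045), a call lost in 7 of the 13 alternatives (adjusted p up to 0.108).

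Acetyltransferases that serve p53 as coactivators moved apart. Ep300 fell from 46.1 ± 1.08 to 37.5 ± 1.28 CPM (log2 fold change -0.30, edgeR adjusted p = 0.00214), while Crebbp rose from 79.9 ± 2.05 to 92.6 ± 2.78 CPM (0.21, adjusted p = 0.00389) and Kat5 from 42.9 ± 2.27 to 49.7 ± 0.298 CPM (0.21, adjusted p = 0.0121). For both Ep300 and Crebbp the groups did not overlap. Genes of p53-binding proteins went in both directions. Those that rose were Trp53bp2, which encodes ASPP2, a cofactor that directs p53 to death genes, from 30.2 ± 0.361 to 46.2 ± 2.98 CPM (0.62, edgeR adjusted p = 0.000287), its relative Ppp1r13b, which encodes ASPP1, from 26.9 ± 1.39 to 35.7 ± 2.01 CPM (0.41, adjusted p = 0.00248), and Trp53bp1, a DNA break repair protein, from 75.9 ± 4.56 to 94.9 ± 6.77 CPM (0.32, adjusted p = 0.00716). Ppp1r13l, which encodes iASPP, the inhibitory relative of ASPP1 and ASPP2, was named after its values were seen, and its counts were 32, 24 and 27 in Ctrl and 13, 13 and 10 in l-FA. It fell from 1.44 ± 0.203 to 0.589 ± 0.0781 CPM (-1.28 ± 0.21 SE, edgeR adjusted p = 0.00252), the largest fall of the 24 regulators tested and the 1 call among them past the 2-fold limit. Some of the regulators named above overlap another gene. Trim28 overlaps Zbtb45 (mean count 719), Kat5 overlaps Rnaseh2c (752), Ppp1r13b overlaps Zfyve21 (367) and Trp53bp1 overlaps Tubgcp4 (820).

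Of 11 genes tested in the list of paralogs, 4 rose, 3 fell and 4 did not pass, beside the same background. This list also holds Rrm1, which is related to Rrm2b as a subunit of the same enzyme and not as a paralog. Besides Ccng2, Isg20, Rrm1, Rrm2 and Sesn3 described above, Ccni, which encodes cyclin I, rose from 146 ± 4.96 to 163 ± 0.827 CPM (log2 fold change 0.16, edgeR adjusted p = 0.00686), and Zmat2, a splicing factor gene, fell from 91.9 ± 1.12 to 81.7 ± 1.54 CPM (-0.17, adjusted p = 0.00476). A member and a relative were called in opposite directions for Ccng1, which fell, and Ccng2 and Ccni, which rose, and for Zmat3, which rose, and Zmat2, which fell. Sesn1 and Sesn2 both rose.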

How the data were processed

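Sorted HSC RNA from 3 Ctrl and 3 l-FA libraries was amplified with SMART-Seq HT and sequenced. The authors deposited raw whole-number counts per gene, without normalization, and FPKM values that divide the counts by gene length and total counts. The submitters' processing notes name HISAT2, SAMtools 1.3.1, StringTie, edgeR and GRCm39; the annotation release and strand setting are not given in the sources used here. Groups and replicate numbers came from the sample titles.

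The quasi-likelihood test of edgeR 4.0.16 (R 4.3.3, with TMM factors, filterByExpr, glmQLFit and glmQLFTest) was applied to the counts, with Benjamini-Hochberg adjustment over all 16520 genes tested. Standard errors (SE) are fold changes on the log2 scale over the root of the F statistic. The paper's methods name DESeq2; version 1.42.0 was an alternative. FPKM served to compare levels between genes, to form ratios of genes within a library, and to describe Trp53 beside its TMM values. No test used FPKM. The code was tested on simulated counts. Counts without molecular identifiers are not independent molecules. The members and lists were chosen with earlier results of these data known. Named genes are all members, Cdkn1a, Bbc3, Bax, Cdkn2a, Ccng2, Sesn2 and Sesn3, and, in each further list, the 5 largest rises and 5 largest falls past the threshold with a mean count of at least 100. Of the marker lists, Mpo, Elane, Procr, Slamf1 and Mki67 and the sorting genes Kit, Ly6a, Cd34 and Flt3 are named. The other HSC markers and the B, T and NK cell markers given were named after their values were seen.

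Alternatives were RLE, upper-quartile and total-count scaling, leaving out the low-count filter, a stricter one of 10 counts or more in each library, DESeq2, the replicate block, and each library left out in turn.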

Additional observations from a re-analysis of the deposited data

How the results depend on the processing

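Counts of genes called over 2-fold depended on the low-count filter, from 1946 as tested to 3335 without a filter and 930 where each library had to have 10 counts or more. With each library left out in turn, 2035 to 2086 genes passed that limit and 7459 to 7733 passed without it, and 6 to 7 members, 21 to 26 further targets, 11 to 13 regulators and 6 to 8 paralogs passed. The members' median log2 fold change stayed between 0.06 and 0.17 in those fits. Phlda3 changed sign without Ctrl library 1 (-0.0070), without Ctrl library 2 (-0.016) and without l-FA library 2 (-0.0035), and over all libraries left out in turn it lay between -0.016 and 0.16; it passed in no setting. Total-count scaling, chosen after the values of Trp53 were seen, moved the median of all genes by 0.0786 on the log2 scale relative to TMM. It left 6 members called. The replicate number as a block gave 6 members, 23 further targets, 12 regulators and 6 paralogs, with 7405 genes in all, and among the members changed the call of Trp53 (adjusted p = 0.0903 from edgeR). Same-numbered libraries did not deviate together over all genes tested (correlations of -0.078 to 0.0039). Such deviations hold much counting error, so this does not settle whether the numbers pair the samples. Where the cause of a move is not given by the alternative itself, the cause was not tested. Depth limits Zmat3, with 19 to 51 counts per library, more than the other members.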

Other observations

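Of the 45 further p53 targets, 3 had too few counts to be tested, and the values of Spata18 and Gls2 are given here. Spata18, which encodes a mitochondrial quality control protein, had no count in any Ctrl library and 18, 6 and 6 counts in the l-FA libraries. Gls2, a mitochondrial glutaminase gene, had 1, 2 and 1 counts in Ctrl and 17, 8 and 19 in l-FA, and it overlaps the more abundant Spryd4. These genes were named after their values were seen, and no fold is given.

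Some regulators, picked out by eye after their values were seen, had a library apart from the others of its group, among them Usp7, the deubiquitinase of MDM2 and p53, with 1289, 643 and 1327 counts in Ctrl and 1409, 1387 and 1464 in l-FA, Rchy1, the ubiquitin ligase gene also called Pirh2, with 629, 1192 and 1374 counts in Ctrl and 1798, 698 and 685 in l-FA, and Banp, the gene of a nuclear matrix protein that binds p53, with 359, 301 and 365 counts in Ctrl and 284, 478 and 482 in l-FA. None of these 3 passed (adjusted p = 0.318, 0.871 and 0.472 from edgeR). Without l-FA library 1, Banp passed (log2 fold change 0.45, adjusted p = 0.0106 from edgeR, in a range of 0.0106 to 0.796 over the alternatives).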
